A study of Mus musculus with 20 samples.

Results

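The hearts of mice fed pravastatin were set against those of control mice, across all genes of an expression array. The arrays were chosen by their titles, 4 named for pravastatin and 4 for control, out of 20 in the series. RNA of the left ventricle was profiled on the Affymetrix Mouse Genome 430 2.0 array, which measures each gene with 1 or more probe sets, 1 array per mouse. All mice were male C57BL/6J animals with no transgene, fed standard chow (CE-2), bought at 6 weeks of age and kept for 2 weeks before treatment. The pravastatin mice then received pravastatin sodium, as a powdered tablet mixed into the chow at 21.0 mg/kg/day, for 4 weeks. The other statin groups, used here as a second comparison, received pitavastatin calcium at 4.5 mg/kg/day, rosuvastatin calcium at 10.9 mg/kg/day or atorvastatin calcium hydrate at 11.4 mg/kg/day for the same time, with 4 mice each. The control mice ate the chow alone. Doses were worked out from food intake, so the dose each mouse took is an estimate.

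Statins lower the supply of mevalonate, the precursor of cholesterol, of coenzyme Q and of the prenyl groups that anchor small GTPases to membranes. In liver cells a fall in sterol releases the sterol regulatory element-binding proteins, which turn on the genes of cholesterol synthesis and of sterol uptake. Pravastatin is a hydrophilic statin that enters hepatocytes through organic anion transporters, while heart muscle lives mainly on fatty acids that lipoprotein lipase frees from circulating triglycerides.

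The 8 arrays differed in brightness within each group. The median signal over all probe sets was 63.0, 90.5, 91.2 and 107.6 in pravastatin mice 1 to 4, against 97.8, 80.5, 83.6 and 119.2 in control mice 1 to 4. The groups overlapped (log2 mean 6.43 ± 0.33 and 6.56 ± 0.26, SD, n = 4 each, two-sided exact permutation p = 0.629), and pravastatin 1 was the dimmest array of the 8. The middle probe set of 18S ribosomal RNA read 3375, 3122, 4305 and 4842 in pravastatin hearts, against 2240, 2690, 2605 and 2793 in control hearts. These did not overlap and were 1.50-fold apart. The exact permutation p was 0.0286, the smallest that 4 against 4 mice allow, or 0.228 after adjustment over 8 array measures. The 3′ and 5′ probe sets of the same RNA were 1.05-fold and 1.23-fold apart (exact permutation p = 0.714 and 0.0571). Whether 18S moved with any gene described below was not tested. The heart muscle label was checked against its markers, not all of which tell ventricle from atrium. Among them Myl2, a light chain of the ventricle, read 31681 to 49790 in pravastatin hearts and 38128 to 46249 in control hearts. All 18 cardiomyocyte markers passed the filter, led by Myl3 at 40160 to 55600 in pravastatin hearts and 44646 to 50763 in control hearts. Atrial myosin light chains were highest in pravastatin 1 and control 1 of their groups.

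**Figure D1:**
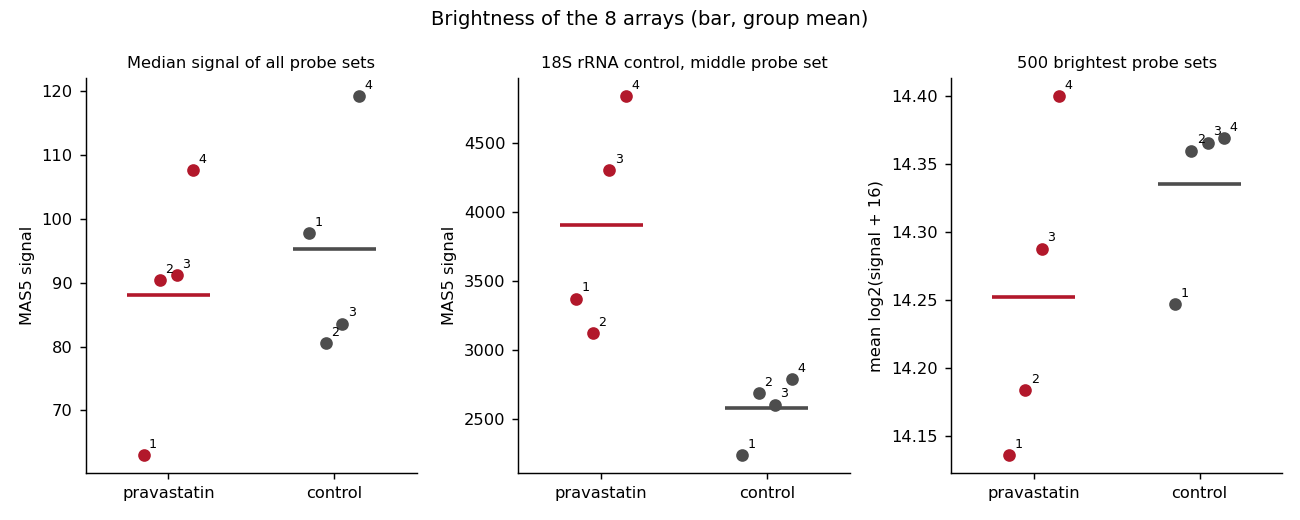
Brightness of the 4 pravastatin and 4 control arrays, numbered by replicate, with a bar at each group's mean. Left, median MAS5 signal of all probe sets, lowest in pravastatin 1 (63.0). Middle, MAS5 signal of the 18S middle probe set, where the groups do not overlap. Right, mean log2(signal + 16) of the 500 brightest tested probe sets, lowest in pravastatin 1 (14.14).

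Across all genes, no probe set passed the threshold between pravastatin and control hearts. Of 22518 probe sets above the filter, 0 (0%) reached an adjusted p of 0.05 (limma, Benjamini-Hochberg), and the smallest adjusted p was 0.0735. In a fit of only the pravastatin and control arrays, without the spread of the other statin groups, the smallest was 0.961. An unadjusted p under 0.05 was reached by 879 (3.9%), fewer than the 1126 that 5 in 100 would give. They were mostly higher in pravastatin hearts, 644 higher (2.86%) and 235 lower (1.04%). That split narrowed to 142 higher and 118 lower when each array was centred on its median, and to 870 higher and 858 lower once each array's median signal entered the fit as a covariate. The signals of the 2 groups did not overlap for 663 probe sets (2.94%), of which 430 (1.91%) had all pravastatin mice above all controls and 233 (1.03%) below. Differences were small, since only 1 probe set was over 2-fold higher in pravastatin hearts and 10 over 2-fold lower. A typical 95% interval had a width of 0.36 on each side (log2), which limits what 4 mice a group could show.

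The 6 probe sets with the smallest p values were all higher in pravastatin hearts and belonged to Med1, Pum2, Wdr26, Usp7, Gid4 and Cbx5. Of the 100 with the smallest p, 89 were higher and 11 lower. Their median signal was 1071, against 378 over all tested probe sets. A difference below is a log2 difference, pravastatin minus control, of signal plus 16. Adjusted p values are limma's, over all tested probe sets.

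Med1 encodes the Mediator subunit that nuclear receptors bind. Its probe set 1421907_at read 1301, 1332, 1567 and 1506 in pravastatin hearts, against 1142, 706, 716 and 759.8 in control hearts. The groups did not overlap, although control 1 lay nearer to the pravastatin mice than to the other controls. The difference was 0.79 (SE 0.13, adjusted p = 0.0735). Pum2, an RNA-binding protein that represses its target messages, read 1082, 1182, 1269 and 1058 at probe set 1418015_at in pravastatin hearts, against 906.5, 782, 625 and 673 in control hearts. The difference was 0.62 (SE 0.10, adjusted p = 0.0735), with control 1 again the highest control.

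Wdr26 and Gid4 are subunits of CTLH, a ubiquitin ligase in which Gid4 binds substrates. Wdr26 (1435478_at) read 3339, 4114, 4326 and 4290 in pravastatin hearts, against 2802, 2878, 2374 and 2767 in control hearts. Every pravastatin mouse lay above every control, and the difference was 0.56 (SE 0.10, adjusted p = 0.0735). Gid4 (1427067_at) read 456, 413, 519 and 572 in pravastatin hearts, against 313, 278, 253 and 221 in control hearts. The difference was 0.84 (SE 0.15, adjusted p = 0.0837), the widest of the 5 probe sets with an adjusted p under 0.10, and again without overlap.

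Usp7 encodes a deubiquitinase. Its probe set 1454948_at read 1718, 1938, 1541 and 1748 in pravastatin hearts, against 1174, 1334, 1179 and 928 in control hearts, a difference of 0.59 (SE 0.10, adjusted p = 0.0837). Cbx5 encodes a heterochromatin protein that binds methylated histone H3. At 1421934_at it read 448, 467, 501 and 522 in pravastatin hearts, against 347, 203.5, 299 and 290.2 in control hearts (difference 0.75, SE 0.14, adjusted p = 0.142). Neither gene's groups overlapped at these probe sets.

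**Figure D2:**
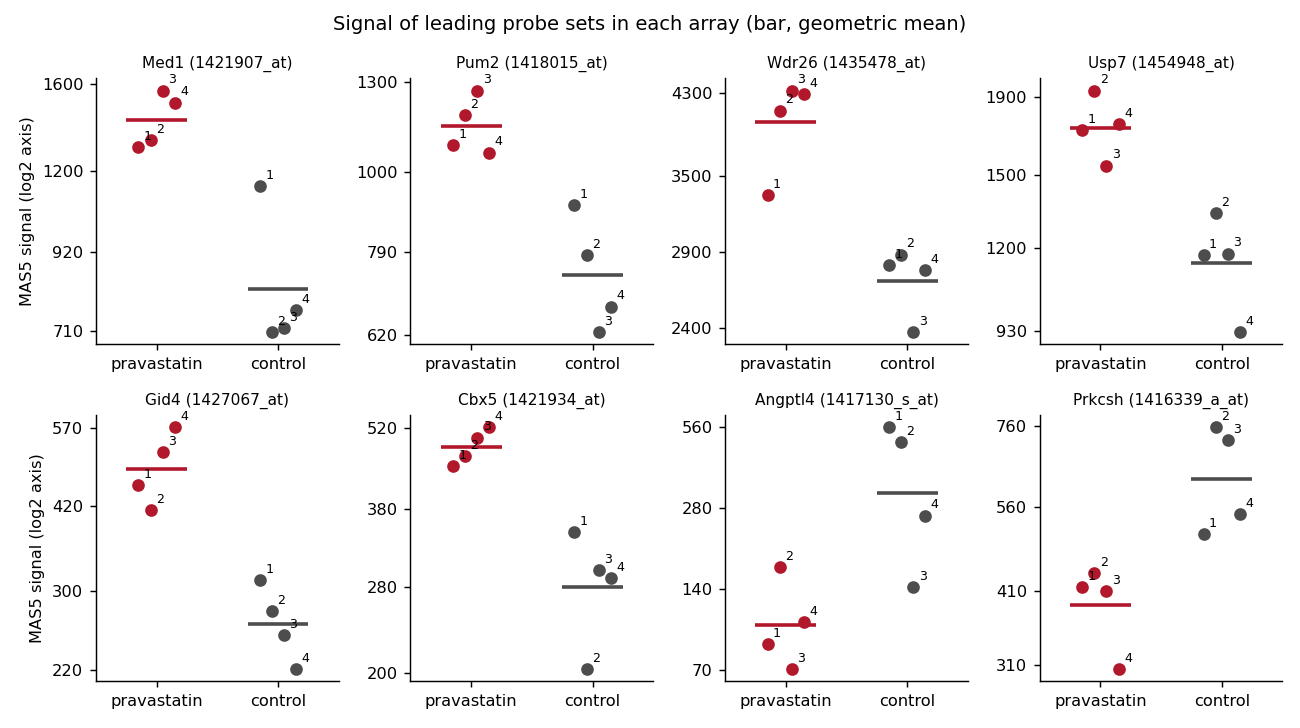
MAS5 signal in each of the 4 pravastatin and 4 control arrays, on a log2 axis, for 6 probe sets higher and 2 lower in pravastatin hearts. Numbers are replicates and bars are geometric means. The groups are apart in every panel but that of Angptl4, and control 1 is the highest control for Med1, Pum2, Gid4 and Cbx5.

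The Wdr26 promoter is shown because 2 known regulatory words meet in it. These are the E-box CACGTG, which the clock factors and others bind, and TCACNCCAC, a sterol regulatory element. Both strands were searched from 250 bases before to 50 after each RefSeq gene start, where a match is only a run of letters. Of 32851 promoters, 7.15% held the E-box and 1.24% the sterol word, and the words do not overlap. The stretch is chr1:181212017-181212142 on the minus strand of GRCm38.p6, 5′ to 3′, with both words in capitals.
Wdr26: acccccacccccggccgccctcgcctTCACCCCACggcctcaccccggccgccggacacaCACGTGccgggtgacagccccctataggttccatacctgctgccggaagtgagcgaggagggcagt

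Other probe sets of the same genes mostly did not share these differences. The leading probe sets were picked by their smallest p, which favours wide differences. In 5 of the 6 genes above a brighter probe set existed. Of the 20 other tested probe sets of the 6 genes, 4 had an unadjusted p under 0.05, against 3.9% of all tested. The brightest Med1 probe set (1448708_at) read 5234, 5265, 6125 and 5971 in pravastatin hearts, against 5525, 5585, 6216 and 5703 in control hearts. These groups overlapped fully, with a difference of -0.03 (95% interval -0.21 to 0.15). The other 4 Med1 probe sets, this one included, lay between -0.28 and 0.04. Those of Cbx5 lay between 0.03 and 0.08. In Gid4, 1427068_x_at was also apart between the groups (0.65), while the brighter pair stood at -0.09 and -0.03. In Wdr26, whose leading probe set is its brightest, the others ran from -0.16 to 0.24.

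Usp7 and Pum2 came nearest to one direction. Usp7 had 2 of 4 other probe sets at an unadjusted p under 0.05, at 0.25 and 0.34, with the remaining ones at 0.17 and 0.01. Pum2 had its other probe sets at 0.14 and 0.26, the second at an unadjusted p of 0.0238. What transcript end or exon each probe set reads was not analysed here.

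Across genes, probe sets of a gene agreed in part. Of 4745 genes with 2 or more tested probe sets, 2357 (49.7%) had all of them on the same side of control. Among the 2874 with exactly 2, the share was 59%. A probe set with an unadjusted p under 0.01 was found in 129 of these genes, higher in 118 and lower in 11. It was the gene's brightest probe set in 44. Their 305 other probe sets lay on the same side in 73.8%, at a median of 0.10 in that direction, against 0.40 for the leading one. The leading one was chosen by its smallest p, which favours a wide difference, so these sizes are not a like comparison. On the leading one's side 28 of the other probe sets, in 24 genes, also had an unadjusted p under 0.05. Of all tested probe sets 3.9% did, in either direction.

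**Figure D3:**
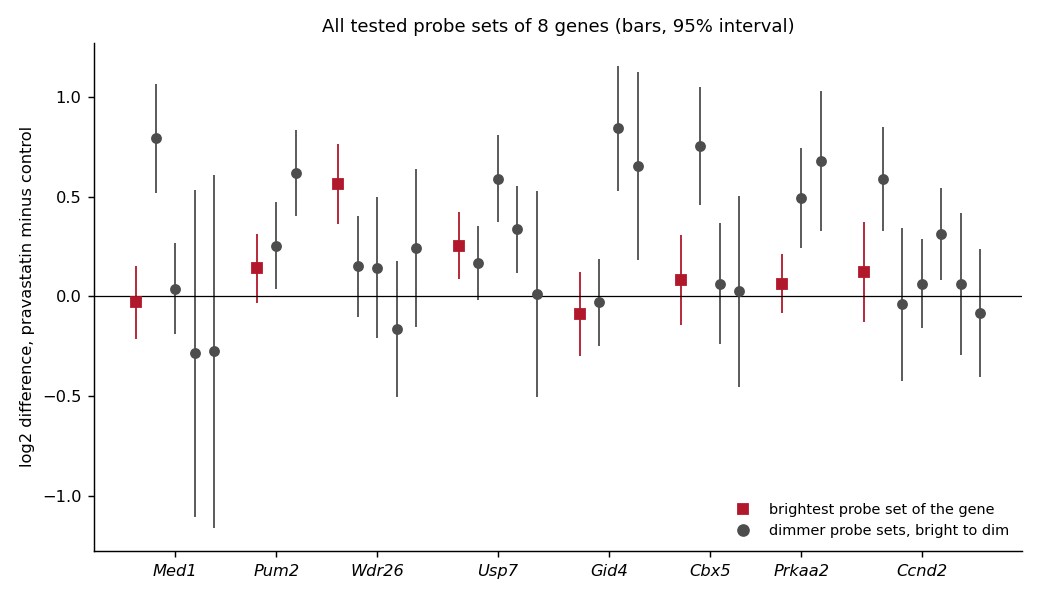
Log2 difference, pravastatin minus control, with its 95% interval, for every tested probe set of 8 genes, ordered within a gene from the brightest (square) to the dimmest. The brightest probe set lies near 0 in Med1, Gid4, Cbx5 and Prkaa2 (-0.03, -0.09, 0.08 and 0.06), while a dimmer one lies at 0.79, 0.84, 0.75 and 0.68.

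Further genes with the highest differences among the 100 smallest p values mostly had a dim probe set beside a brighter one near control. Prkaa2, the catalytic alpha 2 subunit of the energy sensor AMP-activated kinase, had 2 such probe sets. 1429463_at read 437, 383, 502 and 466 in pravastatin hearts, against 427, 242, 241 and 218 in control hearts (difference 0.68, adjusted p = 0.534), where control 1 overlapped the pravastatin mice. 1429464_at read 899.8, 712.5, 859.5 and 960.4 in pravastatin hearts, against 697, 601, 522 and 595 in control hearts (0.50, adjusted p = 0.514), without overlap. The brightest, 1434766_at, stood at 0.06.

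Ccnd2, cyclin D2, read 1434, 1133, 1342 and 1083 at 1416123_at in pravastatin hearts, against 662, 837, 976 and 831 in control hearts (0.59, adjusted p = 0.365). Of its 6 other probe sets, 1448229_s_at was also apart (0.31) and the rest ran from -0.08 to 0.12. Cpox, an enzyme of heme synthesis, stood at 0.80 (adjusted p = 0.409) at its dim probe set and at 0.05 at the bright one. Mgat4a, a glycosyltransferase that branches N-glycans, stood at 0.80 and 0.11. Usp13, a deubiquitinase, stood at 0.69 and -0.09. The transcription factor Maf stood at 0.65 at 1437473_at and between -0.31 and 0.31 elsewhere. Inka2 had 1 tested probe set, at 0.74 (adjusted p = 0.534).

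The lowest differences among the 100 smallest p values were led by Angptl4, which encodes an inhibitor of lipoprotein lipase. Its only tested probe set (1417130_s_at) read 87.4, 169, 70.5 and 105.4 in pravastatin hearts, against 560.7, 492, 142 and 262 in control hearts. Control 3 lay below pravastatin 2, so the groups overlapped, and both spreads were wide (SD 0.47 and 0.86 on the log2 scale). The fitted level was 0.353 of control (difference -1.50, 95% interval -2.40 to -0.60, adjusted p = 0.794). Leaving out any 1 of the 8 arrays gave a difference between -1.86 and -1.24.

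Within the same 100, Prkcsh, Pigs, Loxl1, Rptor, Atp10a, Bicdl1 and Bace2 came next. Prkcsh, the beta subunit of the glucosidase that trims new N-glycans, read 415, 438, 409 and 306 in pravastatin hearts, against 507, 757, 721.5 and 546.5 in control hearts (difference -0.66, adjusted p = 0.64). Pigs, a subunit of the complex that attaches lipid anchors to proteins, read 470.5, 424.5, 525 and 383 in pravastatin hearts, against 582, 677, 620.0 and 619 in control hearts (-0.46, adjusted p = 0.795). Neither gene's groups overlapped. Loxl1, which crosslinks elastin, read 750.5, 654, 720.5 and 735 in pravastatin hearts, against 912.5, 1019, 921 and 1008 in control hearts (-0.42, adjusted p = 0.685), again apart, with its dimmer probe set at -0.12.

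Rptor, the scaffold of the growth-controlling kinase complex mTORC1, read 280.3, 362, 273.5 and 348 in pravastatin hearts, against 408, 464, 441 and 419 in control hearts (-0.44, adjusted p = 0.64). Atp10a, a phospholipid flippase, read 60.0, 95.9, 85.5 and 59.5 in pravastatin hearts, against 184, 115, 143 and 122 in control hearts (-0.78, adjusted p = 0.64). Bicdl1 (-0.89) and the protease gene Bace2 (-0.68 at 1442870_at) were likewise apart, each at an adjusted p of 0.64. The other 3 Bace2 probe sets ran from -0.28 to -0.06. Atp10a and Bicdl1 signals lay close to the filter of 88.3.

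The target pathway of the drug was examined next. No gene of cholesterol synthesis passed the threshold. Genes are represented below by their brightest probe set, and the median difference of all tested probe sets was -0.02. Centring each array on its median raised every difference by the same 0.10, to a median of 0.08 with 67.6% higher. A list that turned from below to above 0 under centring did so by that shift alone. Of 9 tested genes from acetyl-CoA to squalene, 3 lay higher and 6 lower, with a median of -0.07 that turned to 0.04 when arrays were centred. Over all their probe sets the direction was the opposite, with 11 of 18 higher (median 0.03). Of 9 genes after squalene, 7 lay higher and 2 lower, with 10 of 13 probe sets higher. Their median of 0.09 was 0.13 under quantile normalization and 0.20 under centring, which could only raise it. Unadjusted p values under 0.05 were reached by 0 and 1 of these genes, Cyp51, against 3.9% of all tested probe sets.

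Hmgcs1, a synthase early in the mevalonate pathway, read 7243, 7172, 8027 and 7944 in pravastatin hearts, against 7633, 6570, 7717 and 7652 in control hearts. The groups overlapped, with a difference of 0.04 (95% interval -0.19 to 0.27). Its 3 other probe sets all lay higher, at 0.07, 0.12 and 0.17, and 1433445_x_at was apart, with 4236, 4330, 4197 and 4241 in pravastatin hearts against 3863, 3774, 4104 and 3867 in control hearts. Cyp51, a sterol demethylase, read 475, 583, 526 and 529.7 in pravastatin hearts, against 418, 489, 463 and 397 in control hearts (0.25, unadjusted p = 0.0313), with 0.08 at its other probe set.

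Hmgcs1 is the classical sterol-responsive gene of the pathway, and its promoter was the only one among the 30 matched genes of synthesis, sensing and uptake (of 40 in these lists) that held TCACNCCAC. The stretch is chr13:119690154-119690282 on the plus strand of GRCm38.p6 in RefSeq, with that word in capitals.
Hmgcs1: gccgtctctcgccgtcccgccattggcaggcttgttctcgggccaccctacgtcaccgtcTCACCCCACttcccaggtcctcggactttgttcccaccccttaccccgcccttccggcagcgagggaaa

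Fdps, farnesyl diphosphate synthase, lay lowest in the pathway. It read 131, 85.3, 129 and 129.8 in pravastatin hearts, against 119, 149, 181 and 174 in control hearts (-0.35, unadjusted p = 0.0789), and pravastatin 2 stood apart from the other 3. Idi1, the isomerase before it, stood at -0.19 and 0.13 at its 2 probe sets. Sqle, squalene epoxidase, was dim, at 84.6, 80.9, 116 and 175 in pravastatin hearts, against 76.9, 72.6, 103.5 and 129 in control hearts (0.20). Of 14 genes of sterol sensing and uptake 6 lay higher and 8 lower (median -0.03, but 0.08 after centring), with Srebf1, a sterol regulatory element-binding protein gene, at -0.26 (unadjusted p = 0.0484).

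Downstream of mevalonate, Icmt, the methyltransferase that finishes prenylated proteins, read 851, 974, 862 and 822 in pravastatin hearts, against 661, 790.5, 737.5 and 635 in control hearts. The groups were apart (difference 0.31, unadjusted p = 0.00594, adjusted p = 0.966). It was 1 of 10 tested prenylation genes, of which 6 lay higher and 4 lower. Rhob, a prenylated GTPase gene that statins raise in other cells, read 3874, 3931, 3496 and 3908 in pravastatin hearts, against 3255, 3677, 3072 and 2956 in control hearts (0.23, unadjusted p = 0.0178). Among 10 genes of coenzyme Q synthesis 3 lay higher and 7 lower (median -0.04), and this list changed sign under centring (0.06).

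Most genes that free and store fatty acids lay lower. Of 18 tested genes of lipoprotein lipase and lipid droplets, 16 lay lower and 2 higher, where 55.2% of all tested probe sets lay lower. The median was -0.16, and it stayed below 0 under quantile normalization (-0.15), centring (-0.05) and every single-array leave-out (-0.21 to -0.10). No member passed the threshold, and 3, all lower, had an unadjusted p under 0.05, where 1.04% of all tested probe sets were lower at that level. Plin2, a coat protein of lipid droplets, read 3286, 2867, 2942 and 2658 in pravastatin hearts, against 3271, 4099, 3717 and 2974 in control hearts (-0.25, unadjusted p = 0.016). Mgll, monoacylglycerol lipase, stood at -0.26 (unadjusted p = 0.0343), Lipe, hormone-sensitive lipase, at -0.39 and Dgat1, which makes triglyceride, at -0.29. Lpl itself stood at -0.12. Mgll, Lipe, Dgat1 and Lpl are named after their values were seen. On the other side, G0s2 stood highest in the list, at 0.06.

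The mean log2 signal of this list was 10.77, 10.72, 10.73 and 10.70 in pravastatin mice, against 10.84, 11.13, 11.01 and 10.83 in control mice, without overlap. Without Angptl4, a choice made after the values were seen, it was 11.01, 10.90, 10.98 and 10.92 in pravastatin mice, against 10.94, 11.26, 11.22 and 10.99 in control mice. The groups then overlapped, while 15 of the 17 genes lay lower and the median stayed at -0.16. Markers of fat cells were set beside it. Adipoq, Cidec, Lep, Retn and Ucp1, which define fat cells, all lay below the filter, at 1.04 to 69.4 in pravastatin hearts and 1.78 to 74.8 in control hearts. All 5 tested markers of the 10 on the array lay lower, and the summed signal of the 10 was 47961 to 60837 in pravastatin hearts and 55371 to 60819 in control hearts, most of it from Lpl and Fabp4, which heart muscle and its vessels also express. In such bulk samples, fewer cells of a type and less RNA per cell cannot be told apart.

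Other genes of fuel use gave less clear values. Among 19 genes of the fasting response 7 lay higher and 12 lower, with a median of -0.07 that turned to 0.04 under centring. Ehhadh, a peroxisomal enzyme of fatty acid oxidation, read 383, 349.6, 267 and 302 in pravastatin hearts, against 503, 516, 401 and 331.5 in control hearts (-0.40, unadjusted p = 0.0341). Ddit4, which restrains mTORC1, lay on the other side at 0.34 (unadjusted p = 0.094). Of 17 genes of mitochondrial fatty acid oxidation 14 lay lower, with Acads, short-chain acyl-CoA dehydrogenase, at -0.29 (unadjusted p = 0.0396). That list's median of -0.10 was 0.00 after quantile normalization and 0.01 after centring. In glycolysis 13 of 18 lay lower (median -0.10, 0.00 after centring), with Pfkp, a phosphofructokinase, at -0.29 and Pgam1, phosphoglycerate mutase, at 0.26.

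Genes of the respiratory chain and of the sarcomere lay mostly lower in the signals as deposited, by small amounts, and so did the brightest probe sets of the array. Of 33 tested subunits of complex I, 32 lay lower (median -0.10), and of 36 subunits of complexes II to V, 35 (median -0.13). Leaving out single arrays moved these medians between -0.17 (without control 1) and -0.07 (without pravastatin 1) for complex I and between -0.17 (without pravastatin 4) and -0.07 (without pravastatin 1) for complexes II to V. Ndufa10 and Ndufs3 of complex I stood at -0.18 and -0.17, Cyc1 and Uqcr10 of complex III at -0.17 each, and the 69 genes together ran from -0.20 to 0.10. None had an unadjusted p under 0.05, against 3.9% of all tested probe sets. After quantile normalization the medians were -0.01 for complex I and 0.00 for complexes II to V, and after centring 0.00 and -0.03. The sarcomere list had 17 of 23 genes lower (median -0.11, -0.19 to -0.05 over the leave-outs, but 0.01 after quantile normalization), with Actn2, alpha-actinin, at -0.21 and titin (Ttn) at -0.20 and -0.17 at its brightest probe sets.

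The level of brightness moved with these lists. Of the 69 respiratory chain genes, 57 were measured by probe sets among the 500 brightest, as were 13 of the 18 cardiomyocyte markers. All of the 100 brightest tested probe sets lay lower in pravastatin hearts (median -0.12), as did 90.6% of the 500 brightest (median -0.09). After quantile normalization these shares were 41% and 47%. The 500 brightest averaged 14.14, 14.18, 14.29 and 14.40 on the log2 scale in pravastatin arrays, against 14.25, 14.36, 14.37 and 14.37 in control arrays, with overlap. The cut at 500 was chosen after the values were seen. The dimmest tested probe sets lay lower as well, with a median of -0.10 in the dimmest of 5 equal classes of signal and 0.02 in class 4.

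**Figure D4:**
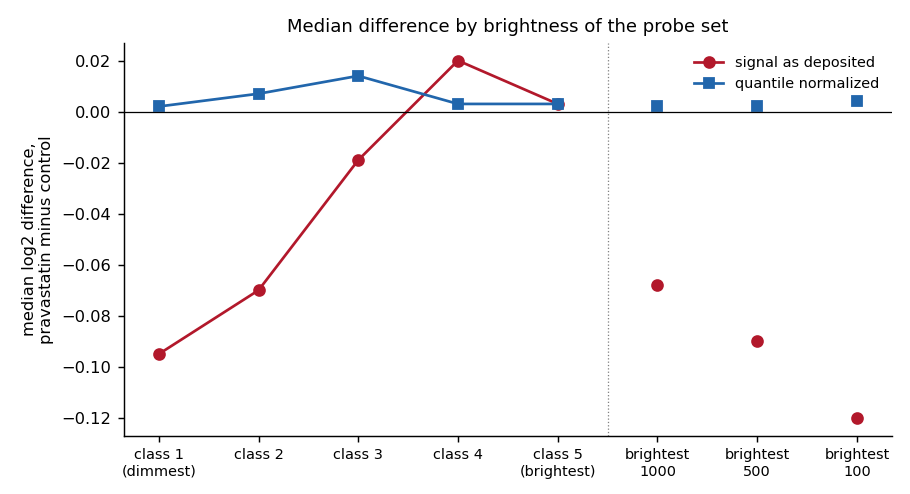
Median log2 difference, pravastatin minus control, over 5 equal classes of the tested probe sets by mean signal and, right of the dotted line, over the 1000, 500 and 100 brightest. With the signal as deposited (circles) the medians run between -0.12 and 0.02. After quantile normalization (squares) they lie between 0.00 and 0.01.

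Genes of RNA processing lay on the higher side. Among splicing factors of the SR and hnRNP families, which bind pre-mRNA, 29 of 33 tested genes lay higher, where 44.8% of all tested probe sets did. The median was 0.08, and it stayed above 0 under quantile normalization (0.08) and every single-array leave-out (0.03 to 0.12). Centring gave 0.19, where it raised all tested probe sets to a median of 0.08. By probe sets the count was 83 of 117. An unadjusted p under 0.05 was reached by 3 higher genes and 1 lower, where 2.86% of all tested probe sets were higher and 1.04% lower at that level. Hnrnpa1 stood at 0.39 at its brightest probe set, with 1667, 1369, 1489 and 1226 in pravastatin hearts against 1393, 1070, 960 and 972 in control hearts. It overlapped through control 1, and its paralogs and pseudogenes may share these probes. Hnrnph1 read 3816, 3832, 4362 and 3992 in pravastatin hearts, against 3379, 3514, 3457 and 3699 in control hearts (0.19, unadjusted p = 0.0297), without overlap. Hnrnpl lay on the other side (-0.37).

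The Pumilio and RNA decay list had 14 of 18 genes higher (median 0.10 as deposited, 0.08 after quantile normalization and 0.21 after centring). Tsnax, a partner of translin in an RNase complex, led it at 0.27 (unadjusted p = 0.00739). Pum2 enters this list through its brightest probe set, at 0.14. In the CTLH ubiquitin ligase 7 of 11 genes lay higher (median 0.08, and 0.05 to 0.13 over the leave-outs). Beside Wdr26, its scaffold subunit Gid8 read 2256, 2224, 2900 and 2594 in pravastatin hearts, against 2193, 2049, 2209 and 2041 in control hearts (0.22, unadjusted p = 0.0284), apart, while its 2 dimmer probe sets stood at 0.01 and 0.05.

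The Mediator complex as a whole was split, with 15 of 32 genes higher and 17 lower. Med13l, of the kinase module, stood at 0.41 (unadjusted p = 0.00502) and Cdk8, the kinase itself, at 0.31 (unadjusted p = 0.0204), with all 4 pravastatin values of Cdk8 above the controls. At an unadjusted p under 0.05 there were 2 higher and 3 lower members, against 2.86% and 1.04% of all tested probe sets. Named after their values were seen, the lower ones were Med12, also of the kinase module (-0.34, groups apart), Med23 (-0.30) and Med30 (-0.30). The 19 tested genes of heterochromatin and polycomb were split as well, 10 higher and 9 lower, from Ehmt2, a histone methyltransferase, at -0.33 to Rnf2, a polycomb ubiquitin ligase, at 0.30. Among nuclear-retained long RNAs, Malat1 stood at 0.38 at its brightest probe set but between -0.23 and 0.19 at 6 others.

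In kinase signalling, 12 of 16 genes of the AMP-activated kinase list lay higher (median 0.06 as deposited and after quantile normalization, 0.16 after centring). Prkag2, a regulatory subunit whose human mutations cause a storage cardiomyopathy, read 450.0, 449.7, 412.5 and 425 in pravastatin hearts, against 341, 330.5, 356 and 361 in control hearts at its brightest probe set. The groups were apart (0.31, unadjusted p = 0.022), with the other probe sets at -0.12 and 0.27. Prkab1, a beta subunit, stood at -0.26. Of 23 genes of insulin and mTOR signalling 14 lay higher and 9 lower, between Rptor at -0.44 and Akt1s1, an inhibitory component of mTORC1, at 0.44. Akt1s1, named after its values were seen, stood at -0.35 and -0.38 at its other probe sets. Pik3r1, a regulatory subunit of phosphatidylinositol kinase, stood at 0.19.

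Protein synthesis and turnover showed little. Of 31 proteasome subunits 12 lay higher and 19 lower. Psmd11 alone had an unadjusted p under 0.05, against 3.9% of all tested probe sets (0.43, with 0.01 at a probe set of similar brightness). Cytosolic ribosomal protein genes lay lower in 19 of 23 (median -0.06, but 0.04 after centring), with Rpl7 at -0.16. Heat shock chaperones were split, 10 higher and 11 lower, and Dnajb1 stood at 0.34 and -0.27 at its 2 probe sets. Among peptide-loading genes of MHC class I, Nlrc5, their transcriptional activator, and Pdia3 stood at 0.33 and 0.39 with the groups apart (unadjusted p = 0.0443 and 0.00599).

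Clock genes lay on both sides of control. Nr1d2, a nuclear receptor that represses clock targets, read 5708, 6186, 5568 and 6517 in pravastatin hearts, against 5408, 4190, 3970 and 4897 in control hearts. The groups were apart (0.38, SE 0.11, unadjusted p = 0.00178, adjusted p = 0.645). Tef, a clock output activator, read 1458, 1317, 1348 and 1718 in pravastatin hearts, against 1104, 1404, 1192 and 1212 in control hearts (0.25, unadjusted p = 0.0271). Dbp, which binds the same sites as Tef and is named after its values were seen, stood at 0.61 (unadjusted p = 0.0892).

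Nfil3, a repressor at those sites, lay on the other side. It read 586, 482, 422 and 252.5 in pravastatin hearts, against 595, 681, 837 and 482 in control hearts (-0.59, unadjusted p = 0.0446). Of 17 clock genes 11 lay higher and 6 lower (median 0.10, 0.09 after quantile normalization and 0.20 after centring). The mice were kept on a light and dark cycle, and the hour at which each heart was taken was not analysed here.

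The E-box CACGTG was found in the promoters of 5 of 17 matched clock genes (Bhlhe41, Ciart, Cry1, Per1 and Tef). A gene counted if any of its listed starts held the word. The 7.15% above is a share of single promoters, so it is not a like measure. The Tef promoter is shown because Tef had the smallest p value of these 5, at the upstream one of its 2 listed starts. The stretch is chr15:81802486-81802611 on the plus strand of GRCm38.p6 in RefSeq, with the word in capitals.
Tef: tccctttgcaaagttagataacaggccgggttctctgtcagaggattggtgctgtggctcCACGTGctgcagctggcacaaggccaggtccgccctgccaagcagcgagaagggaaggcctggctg

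In the electrical and contractile genes, Kcnj5, a subunit of the acetylcholine-gated potassium channel, had the smallest p value. It read 2667, 2762, 2458 and 2432 in pravastatin hearts, against 2126, 1967, 1868 and 1889 in control hearts. The groups were apart and tight (0.39, SE 0.09, unadjusted p = 0.000483, adjusted p = 0.509). Kcnk3, another potassium channel, stood at -0.19. Calcium handling genes were split, with 7 of 20 higher. Acta1, skeletal actin, a gene of the stressed heart, read 2032, 3013, 2711 and 2940 in pravastatin hearts, against 4169, 3864, 3659 and 3157 in control hearts. Its groups were apart (-0.48), although the unadjusted p was 0.185.

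Extracellular matrix genes lay lower in 27 of 37, with a median of -0.08 that was -0.09 after quantile normalization but 0.02 after centring. Col4a1, a basement membrane collagen, read 5653, 5231, 5687 and 4950 in pravastatin hearts, against 5675, 6326, 7056 and 6962 in control hearts (-0.27, unadjusted p = 0.0146), and its dimmer probe set stood at -0.24. Tgfb1, a cytokine that promotes matrix deposition, lay on the other side at 0.36 (unadjusted p = 0.05). Fibroblast markers moved with the matrix list, lower in 16 of 18 (median -0.09, but 0.01 after centring), with Gsn, the actin-severing protein gelsolin, at -0.18. Their summed signal was 58378 to 63413 in pravastatin hearts and 61686 to 68348 in control hearts. The part of fibroblast number in the matrix values was not tested.

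**Figure D5:**
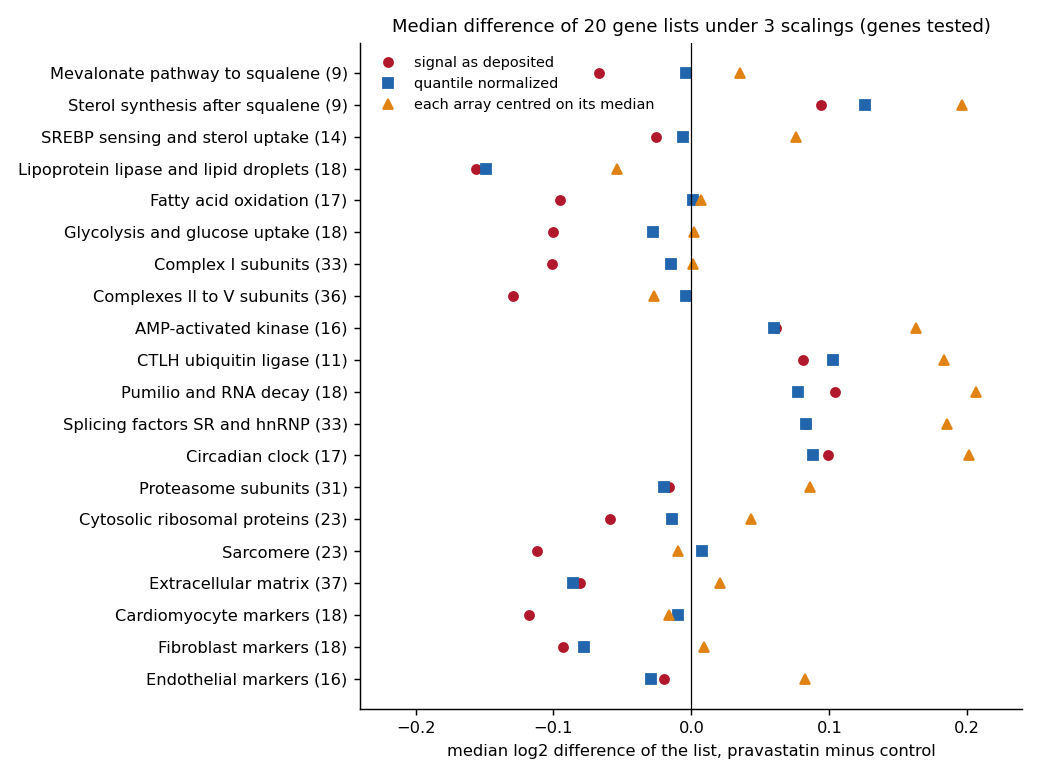
Median log2 difference, pravastatin minus control, of 20 gene lists, with the number of tested genes in brackets, for the signal as deposited, after quantile normalization and after centring each array on its median. Lipoprotein lipase and lipid droplets stay below 0 in all of these (-0.16, -0.15 and -0.05) and splicing factors above 0 (0.08, 0.08 and 0.19). Centring moved every list up by the same 0.10. Complex I (-0.10) moves to -0.01 and 0.00.

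Markers of other cells singled out 2 arrays. Myl4 and Myl7, myosin light chains of the atrium, read 1150 and 199 in pravastatin 1, against 373 to 434 and 3.04 to 9.81 in the other pravastatin mice. In control 1 they read 1248 and 296, against 387.5 to 616 and 3.12 to 52.1 in the other controls. Summed macrophage and leukocyte markers were 26971 to 43908 in pravastatin hearts and 29722 to 33801 in control hearts. Pravastatin 1 held the highest values of Adgre1 (1334), Ptprc (828.5), Ctss (7581) and Tyrobp (2185), all macrophage or leukocyte genes. Other markers of that list went the other way. Pravastatin 1 was the lowest of the pravastatin mice for Cd163 (359.6), Mrc1 (1085), Cd68 (227.8) and Cx3cr1 (104.8). Over the 8 atrial markers, 3 of which lay below the filter, the summed signal was 6523 to 10474 in pravastatin hearts and 8588 to 10646 in control hearts. The part of these markers in the differences above was not tested. Skeletal muscle myosins (Myh1, Myh2 and Myh4) lay below the filter in both groups.

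Leaving out these arrays changed the calls. Without control 1, 22 probe sets passed an adjusted p of 0.05, all higher in pravastatin hearts, among them Med1, Pum2, Wdr26, Gid4, Usp7, Cbx5, Prkaa2, Mgat4a and Psmd11. Without pravastatin 1 only Wdr26 passed, and without both arrays 5 did (Atxn1, Med1, Pum2, Ryr2 and Wdr26). Atxn1 and Ryr2 are named after their values were seen. None passed when any of the other 6 arrays was left out. In the 8 leave-outs the difference stayed between 0.73 and 0.95 for Med1 (1421907_at), 0.50 and 0.65 for Wdr26, 0.54 and 0.72 for Pum2, and 0.76 and 0.92 for Gid4. Ranges of Kcnj5 (0.36 to 0.43) and Loxl1 (-0.45 to -0.38) were narrow. For the lipoprotein lipase list the median without both arrays was -0.27.

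Against the mean of the other 3 statins, pravastatin hearts likewise showed no call. Of 22518 probe sets 0 (0%) passed, the smallest adjusted p was 1, and 604 (2.68%) had an unadjusted p under 0.05, of which 365 were higher (1.62%) and 239 lower (1.06%). Doses differed between the statins, so the values stand side by side. Wdr26 averaged 11.97 on the log2 scale with pravastatin, 11.41 with pitavastatin, 11.81 with rosuvastatin, 11.48 with atorvastatin and 11.41 in control (pravastatin minus the mean of the other statins 0.41, SE 0.08, unadjusted p = 4.61e-05). Gid4 (1427067_at) averaged 8.97 with pravastatin, 8.28 with pitavastatin, 8.77 with rosuvastatin, 8.47 with atorvastatin and 8.13 in control. Angptl4 averaged 6.90 with pravastatin, 7.65 with pitavastatin, 7.35 with rosuvastatin, 8.75 with atorvastatin and 8.40 in control (difference from the other statins -1.02, SE 0.35, unadjusted p = 0.00935).

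The genes chosen for the widest gaps to the other statins were Prkcb, Dbh and Socs6 above and Hcn2, Coro2b and Slc46a1 below. Socs6, a suppressor of cytokine signalling, averaged 8.05 with pravastatin and 7.39 to 7.72 in the other statin groups. At 1452764_at it read 237, 235.8, 268 and 256.5 in pravastatin hearts, against 192, 168, 199 and 179 in control hearts, with a second probe set apart as well (0.40 and 0.35 against control). Prkcb, a protein kinase C, rested on pravastatin 1, which read 464 against 190.5 to 206 in the other pravastatin mice and 131 to 181 in control mice.

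Hcn2, a pacemaker channel, read 87.9, 77.5, 46.2 and 11.3 in pravastatin hearts, against 106.5, 131, 73.2 and 137 in control hearts, near the level of the filter. Its difference from control moved between -1.21 and -0.57 over the leave-outs, and that of Coro2b, an actin-binding protein, between -1.04 and -0.53, in both cases at its smallest without pravastatin 4. Slc46a1, a folate transporter, stood at -0.65 against the other statins and -0.57 against control. For Dbh, which makes noradrenaline, the gap was to the other statins only (0.52), since its difference from control was 0.06.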

How the data were processed

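Left ventricle RNA of 20 mice was measured, and 8 arrays enter the comparison of pravastatin with control. The deposited values are signal intensities on a linear scale, 1 per probe set and array. The authors derived them with MAS5 (per the submitters' processing notes, version not given in the sources used here). The trimmed mean of every array was 499.8, so the arrays share a scale. No 2 arrays held identical values. Labels give each array its own animal, and detection calls were not used here.

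The 64 control probe sets were left out, 16 was added to each signal before log2, and the brighter 50% of 45037 probe sets by mean over all arrays were kept (22518, at a signal of 88.3 or more). GEO's platform annotation gave 18935 of these 1 symbol, for 11201 genes, 586 several and 2997 none. Only those with 1 symbol were named. Of all annotated probe sets, 34741 matched the reference gene table by identifier, and 0 symbols changed.

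Differences were fitted with limma 3.58.1 in R 4.3.3, with 1 mean for each of the 5 groups over all 20 arrays and eBayes with trend (15 residual degrees of freedom, 4.23 prior). Calls were made at a Benjamini-Hochberg adjusted p of 0.05 over all tested probe sets, and intervals are at 95%. Single measures per array were compared by two-sided exact permutation. The number of arrays limits the precision. The procedure was tested on simulated data.

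The arrays compared, the 50 gene lists (920 genes, each taken at the brightest probe set) and the tests were chosen with earlier results of these data known. Lists are described by counts and medians. Named genes are the 12 highest and 8 lowest differences among the 100 smallest p values, the 2 smallest p values of each list with a gene on the other side where useful, 7 set genes, and 3 high and 3 low against the other statins among the 50 smallest p values there. Some genes that the rule names are not reported. Other settings were quantile normalization, centring, pseudocounts of 1 and 64, no filter, the brightest 30%, no trend, only the groups compared, array weights, the median signal as a covariate, a replicate block, 1 probe set per gene and single-array leave-outs. Leaving out control 1 and pravastatin 1 together, and taking Angptl4 out of its list, were added after seeing the data. Promoter sequences are RefSeq's for GRCm38.p6.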

Additional observations from a re-analysis of the deposited data

Results flagged for a closer look

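In 22 of 316 groups of 4 arrays examined, the highest or lowest array stood apart from the other 3 by more than Dixon's limit for 4 values, where chance alone gives about 1 in 20. Values here are mean log2 signals unless another unit is named.

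Pravastatin 1 was high for Prkcb (8.91, against 7.69 to 7.80 in the other pravastatin mice), for the fetal and stress genes of cardiomyocytes (11.28, against 10.63 to 10.65) and for atrial markers (9.71, against 8.48 to 8.67). Control 1 was high for the same fetal and stress genes (11.19, against 10.88 to 10.93 in the other controls). It was also high for Med1 at 1421907_at (10.18, against 9.50 to 9.60), Prkaa2 at 1429463_at (8.79, against 7.87 to 8.01), the venous and atrial regulator Nr2f2 (10.82, against 10.25 to 10.28) and the Pumilio and RNA decay list (10.90, against 10.71 to 10.72), and low for cardiomyocyte markers (14.08, against 14.29 to 14.31).

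Pravastatin 2 was low for Fdps (6.66, against 7.18 to 7.20) and for the ratio of the 3′ to the 5′ actin control (4.03, against 4.93 to 5.04, a ratio of signals). Pravastatin 3 was low for Rhob (11.78, against 11.92 to 11.95), for Acads (9.87, against 10.05 to 10.08) and for the circadian clock list (9.50, against 9.66 to 9.69), and high for the erythroid list (8.03, against 7.75 to 7.78), which holds 1 tested gene.

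Control 2 was high for Psmd7, a proteasome subunit (9.28, against 8.63 to 8.69), and for potassium channels (9.93, against 9.84 to 9.85). It was low for Hmgcs1 (12.68, against 12.90 to 12.92), fibroblast markers (10.73, against 10.80 to 10.82) and smooth muscle and pericyte markers (10.19, against 10.45 to 10.50). Control 3 was low for the circadian clock list (9.52, against 9.58 to 9.59), and control 4 high for epicardium and mesothelium markers (8.03, against 7.43 to 7.47).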

How the results depend on the processing

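Between pravastatin and control, the count of probe sets past an adjusted p of 0.05 was 0 as reported. It was 3 among the brightest 30%, 16 with array weights, 6 with the median signal as a covariate, 0 to 22 when single arrays were left out and 5 without control 1 and pravastatin 1 together. At an unadjusted p under 0.05 the counts were 644 higher and 235 lower. They were 142 and 118 with each array centred on its median, 1190 and 802 with array weights, 297 and 137 with 1 probe set per gene, and 498 to 1084 and 203 to 561 over the leave-outs. The lower count was 560 with no filter, 134 among the brightest 30%, 439 in a fit of only the groups compared, 858 with the covariate and 672 without control 1 and pravastatin 1. Probe sets whose groups did not overlap were 268 higher after centring, 523 lower with no filter, 102 lower among the brightest 30%, and 200 higher and 122 lower with 1 probe set per gene. They were not counted in leave-outs, where fewer arrays raise the number by construction.

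Against the other statins, the unadjusted counts of 365 higher and 239 lower became 62 and 69 after centring, 729 and 406 with no filter, 855 and 823 with array weights, 640 and 549 with the covariate, and 258 to 534 and 137 to 502 over the leave-outs. The lower count was 156 among the brightest 30%, and the higher count 186 with 1 probe set per gene. The cause of these shifts was not tested, apart from the smaller number tested in the stricter filters. Centring moved the median of all tested probe sets by 0.10.

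Replicate numbers are shared across groups and were not taken as pairs. After each group was centred on its mean, same-numbered pravastatin and control arrays correlated at -0.17, -0.18, 0.02 and 0.56. Different-numbered arrays ran from -0.625 to 0.514. Whether a replicate number marks a shared batch was not tested. With a replicate block, 815 probe sets were higher and 302 lower at an unadjusted p under 0.05.

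Of 2086 alternative values for 101 gene results, 2048 kept their direction and side of the threshold, 29 came to pass it and 9 turned their sign. The last were Med1 1448708_at (0.072 after centring, and -0.069 to 0.008 over the leave-outs, turned without control 3, pravastatin 1 or pravastatin 2), Hmgcs1 (-0.015 to 0.067, turned without control 2), Dbh (-0.042 to 0.19, turned without control 4, pravastatin 3 or pravastatin 4) and Sqle (-0.007 to 0.333, turned without pravastatin 4).

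With 4 mice a group, differences under about 0.36 on the log2 scale for a typical probe set could not be told from 0. Dim probe sets had wider intervals. The shift of the 500 brightest and of the dimmest probe sets depended on the scaling.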
